A study of Rattus norvegicus with 8 samples.

Results

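The insulin-like growth factor (IGF) genes followed here were 6 of the 26405 gene IDs in the count table. They were the ligands Igf1 (ENSRNOG00000004517) and Igf2 (ENSRNOG00000020369), the receptors Igf1r (ENSRNOG00000014187) and Insr (ENSRNOG00000029986), and the binding proteins Igfbp2 (ENSRNOG00000016957) and Igfbp5 (ENSRNOG00000017206). The genes were chosen by name and ID, with earlier results of these data known. The pairing of ID and symbol came with that list, since the deposited tables hold IDs alone and the RefSeq gene table used here lists symbols without Ensembl IDs. All 6 were abundant enough to be among the 14522 IDs tested.

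RNA was sequenced from the right hippocampus of 8 female Sprague-Dawley rats aged 28 months, with 1 library per rat. All 8 animals had been given an adenovector by injection into the ventricles of the brain. In the IGF1 group (4 rats) the vector expressed rat IGF-I, and in the DsRed group (4 rats) it was the placebo vector named for the red fluorescent protein DsRed. No animals without vector and no young animals were among the samples, so both groups shared age, sex, strain and exposure to an adenovector. The sources used here do not give the promoter of the vector, the cells it entered or the interval from injection to dissection. The vector carried the rat gene, so reads from the vector transcript and from the native transcript fall in the same Igf1 row and could not be separated.

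IGF-I and IGF-II are small secreted hormones that act through the tyrosine kinase receptor encoded by Igf1r and can also act through the insulin receptor encoded by Insr. In the blood and in tissue fluid they are held by IGF binding proteins, which prolong their life and set how much of them reaches the receptor. In the brain Igf1 is made by neurons and glia, while Igf2 and Igfbp2 are strongly expressed in the choroid plexus and the meninges.

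The sequence before the gene start is shown for the ligand that the vector supplied and for both binding proteins. Igfbp2 and Igfbp5 lie next to each other on chromosome 9 with 0 annotated genes between them. Both had their highest level in IGF1 replicate 1, the library that was also highest for Insr, which lies on chromosome 12. Igfbp2 was almost as high in DsRed replicate 4, where Igfbp5 was lowest. Each window runs from 250 bases before to 50 bases after the start of the gene in RefSeq on build GRCr8, and 6 of the 6 genes were matched by symbol. Capitals mark the GC box, GGGCGG on either strand.
Igf1, chr7:24172282-24172581, plus strand: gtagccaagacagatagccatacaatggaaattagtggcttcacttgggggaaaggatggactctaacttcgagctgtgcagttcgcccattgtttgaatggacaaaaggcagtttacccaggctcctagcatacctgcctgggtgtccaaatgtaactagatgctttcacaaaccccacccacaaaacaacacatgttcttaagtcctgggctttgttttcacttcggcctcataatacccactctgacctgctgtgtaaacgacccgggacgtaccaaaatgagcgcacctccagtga
Igfbp2, chr9:81864561-81864860, plus strand: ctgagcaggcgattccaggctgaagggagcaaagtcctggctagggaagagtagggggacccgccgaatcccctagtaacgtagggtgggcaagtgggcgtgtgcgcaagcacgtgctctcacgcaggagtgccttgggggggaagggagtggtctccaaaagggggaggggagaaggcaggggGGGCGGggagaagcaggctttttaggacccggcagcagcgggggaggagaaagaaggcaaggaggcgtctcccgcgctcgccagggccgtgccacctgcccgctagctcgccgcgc
Igfbp5, chr9:81914138-81914437, minus strand: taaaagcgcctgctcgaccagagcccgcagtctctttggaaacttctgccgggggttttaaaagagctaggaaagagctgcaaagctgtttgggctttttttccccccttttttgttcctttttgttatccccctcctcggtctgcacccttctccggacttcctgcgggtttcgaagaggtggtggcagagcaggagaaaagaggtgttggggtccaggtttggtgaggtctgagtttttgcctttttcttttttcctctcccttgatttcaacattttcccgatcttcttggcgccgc
The Igfbp2 window held 1 GC box, and the windows of Igf1 and Igfbp5 held 0. Of all 33469 RefSeq windows of 300 bases, 33.1% held a GC box. A TATA box, TATAAA on either strand, was found in 14.2% of all windows, and a CCAAT box, CCAAT on either strand, in 37.5%. Neither was found in the 3 windows shown. The bases G and C made up 48.3% of the Igf1 window, 66.7% of the Igfbp2 window and 50.7% of the Igfbp5 window, against a median of 51.7% over all windows.

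Between 16347636 and 27377086 reads per library were assigned to genes. Levels are given as CPM, the reads of a gene scaled to the size of its library with edgeR's TMM factors. They are compared between libraries and not between genes, because gene lengths were not used. IGF1 replicate 1 stood apart from the rest: averaged over the other libraries, its Spearman correlation was 0.986, where the remaining 7 libraries had 0.991 to 0.994. It also had the largest share of reads outside annotated genes, 32.9% against 30.7% to 32.2%. Fold changes and correlations that rest on it are given with and without it. Cell type markers were not analysed here for want of gene names. In whole tissue, fewer cells of a type and less RNA per cell cannot be told apart.

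Between IGF1 and DsRed rats, 0 of the 6 genes were called at a threshold of 0.05 after Benjamini-Hochberg adjustment (edgeR quasi-likelihood test), and 0% of the 14522 IDs were. Without adjustment 0 of the 6 genes had a p under 0.05, a mark that 6.60% of all IDs reached. This count was 1 or 2 under 12 of 20 alternative fits, among them DESeq2 with Igf1 and Igfbp5, and 0 under the other 8. Over all IDs, DESeq2 put 859 of 20653 under that mark, and the 20 fits put between 626 and 1439. The 2 groups overlapped for each of the 6 genes, while they did not overlap for 4.71% of all IDs. The fitted level was higher in the IGF1 group for 3 genes (Igf1, Igfbp2 and Igfbp5) and lower for 3 (Igf2, Igf1r and Insr). The median log2 fold change of the 6 genes was 0.018, against 0.0027 over all tested IDs, and the median size of the change was 0.23, against 0.083. The IDs in this comparison were not matched for spread between rats. Igfbp2, Igf2, Igf1 and Igfbp5 varied within groups by 21.9% to 39.3% (coefficient of variation). For Igfbp2 and Igfbp5 this spread includes IGF1 replicate 1, far above their other IGF1 libraries, and for Igfbp2 also the high DsRed replicate 4. The median over all tested IDs was 9.55%, and Igf1r and Insr lay below it. edgeR's likelihood ratio test, DESeq2 and limma voom also called 0 of the 6 genes, although the first 2 called 11 and 13 IDs over the whole table.

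**Figure D1:**
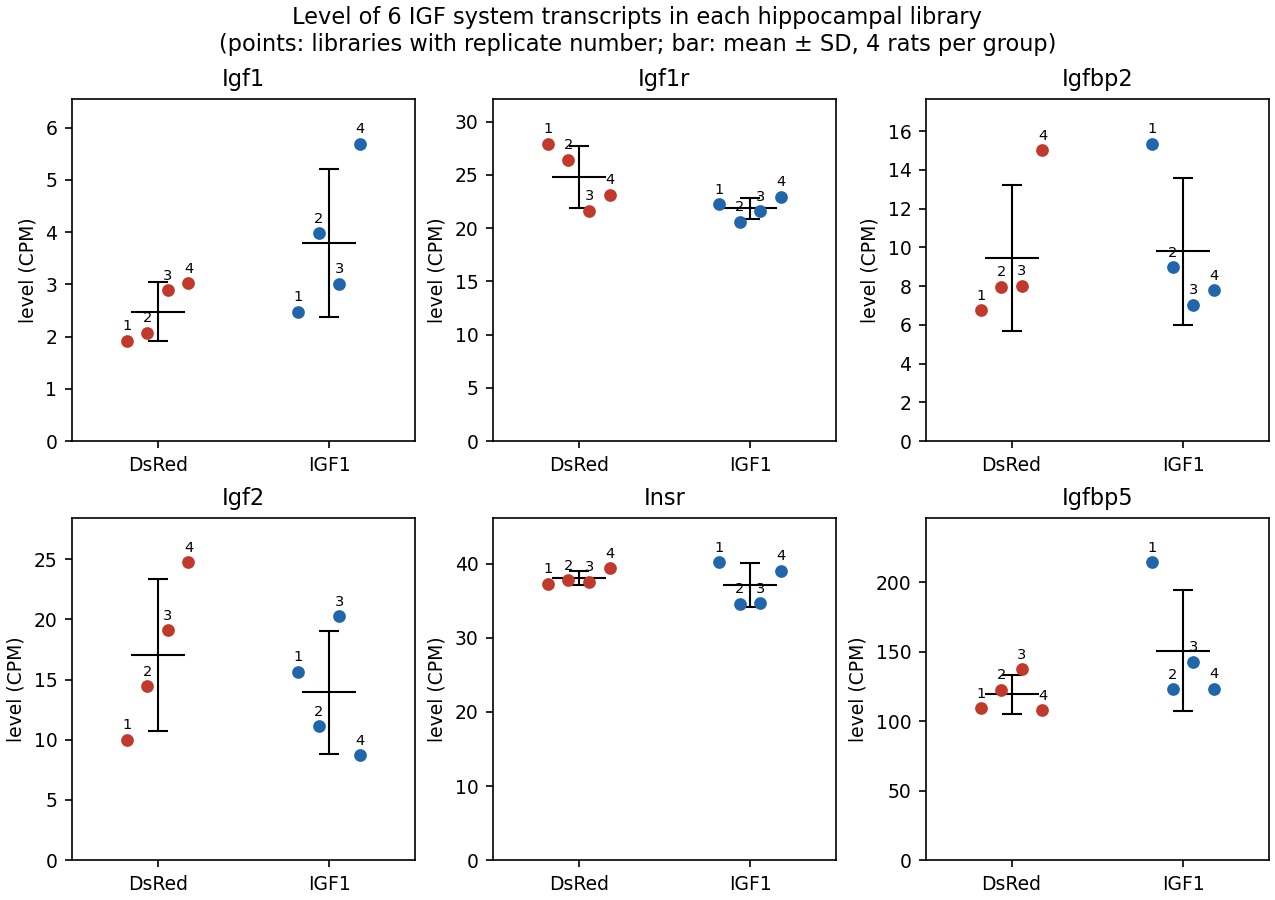
Level (CPM, y axis from 0) of each IGF system transcript in every library, with DsRed libraries in red and IGF1 libraries in blue, numbered by replicate, and the mean ± SD of 4 rats as a black bar. The groups overlap in all 6 panels, and IGF1 replicate 1 is the highest library for Igfbp2, Igfbp5 and Insr.

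Igf1, the ligand that the vector was built to supply, averaged 3.79 ± 1.41 CPM in IGF1 rats and 2.48 ± 0.56 CPM in DsRed rats (SD, n = 4 each). In IGF1 replicates 1 to 4 its level was 2.48, 3.98, 3.01 and 5.70 CPM. In DsRed replicates 1 to 4 it was 1.93, 2.08, 2.89 and 3.02 CPM. IGF1 replicates 2 and 4 lay above every DsRed library, replicate 3 lay just below the highest of them, and replicate 1 lay within their range. An IGF1 library was the higher in 13 of the 16 possible pairs of an IGF1 with a DsRed library.

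The fitted log2 fold change of Igf1 was 0.59 ± 0.27 (standard error), with a 95% interval of -0.014 to 1.20, or 0.990-fold to 2.30-fold. The edgeR quasi-likelihood p was 0.0547, and 0.743 once adjusted over all IDs. An exact two-sided permutation test of its CPM gave a p of 0.143, where 4 libraries against 4 allow a smallest p of 0.0286. Of all tested IDs, 98.1% had a fitted change no larger in size. The difference was thus among the larger ones of the table in size, but it was not beyond the spread between rats. This ranking by size takes no account of read number or spread. By unadjusted edgeR p, Igf1 ranked 1059 among the 14522 tested IDs.

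Few reads stood behind the Igf1 values, between 31 and 98 per library. Counting alone gives such numbers a relative error of 10.1% to 17.96%, while the levels varied by 37.2% (coefficient of variation) among the IGF1 rats and by 22.5% among the DsRed rats. The 95% Poisson interval of IGF1 replicate 4 ran from 4.62 to 6.94 CPM and lay above that of every DsRed library, the highest of which ended at 3.93 CPM. The interval of IGF1 replicate 1, from 1.927 to 3.15 CPM, held the levels of 3 of the 4 DsRed libraries. DsRed replicate 1, at 1.925 CPM, lay practically at its lower limit. These intervals cover counting error only. Without IGF1 replicate 4 the log2 fold change of Igf1 was 0.34, with an unadjusted edgeR p of 0.184, and leaving out any other library gave between 0.50 and 0.76. The upper value came without IGF1 replicate 1, where the edgeR p was 0.0124 unadjusted and 0.744 adjusted.

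Igf2, the second IGF ligand, averaged 13.9 ± 5.09 CPM in IGF1 rats and 17.1 ± 6.32 CPM in DsRed rats (SD, n = 4 each). Its level was 15.7, 11.1, 20.2 and 8.72 CPM in IGF1 replicates 1 to 4. In DsRed replicates 1 to 4 it was 9.999, 14.4, 19.1 and 24.7 CPM. The groups covered much of the same range, and the spread within each group exceeded the difference between the means. The log2 fold change was -0.28 ± 0.30 (standard error), with a 95% interval of -0.95 to 0.38. The adjusted edgeR p was 0.833 and the exact permutation p 0.486. The log2 fold change lay between -0.52 without IGF1 replicate 3 and -0.060 without DsRed replicate 4. It was -0.46 without DsRed replicate 1, -0.19 without IGF1 replicate 2 and -0.12 without IGF1 replicate 4.

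Igf1r, the main signalling receptor for IGF-I, averaged 21.9 ± 1.004 CPM in IGF1 rats and 24.8 ± 2.90 CPM in DsRed rats (SD, n = 4 each). The IGF1 libraries were close together, at 22.3, 20.6, 21.6 and 23.0 CPM in replicates 1 to 4. The DsRed libraries were at 27.9, 26.4, 21.6 and 23.2 CPM. All 4 IGF1 libraries lay below the mean of the DsRed group, but DsRed replicate 3 lay among them, so that an IGF1 library was the higher in 2 of 16 pairs. The log2 fold change was -0.18 ± 0.085 (standard error), with a 95% interval of -0.37 to 0.011. The edgeR p was 0.0617, or 0.743 adjusted, and the exact permutation p was 0.114. Without DsRed replicate 3 the log2 fold change was -0.24, the unadjusted edgeR p 0.0150 and the adjusted edgeR p 0.897. That library was the one that made the groups overlap. Leaving it out therefore fixed the exact permutation p at 0.0286, the smallest possible, and this p is no support for a difference. Leaving out any other library gave an exact permutation p of 0.114 to 0.257. Without DsRed replicate 1 the log2 fold change was -0.12 (unadjusted edgeR p 0.172) and the difference in CPM -1.89, against -2.93 with all libraries. Without DsRed replicate 2 the log2 fold change was -0.15 (unadjusted edgeR p 0.158). The receptor transcript was counted with 378 to 686 reads per library.

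Insr, which encodes the insulin receptor, was the steadiest of the 6 transcripts. Its level was 40.2, 34.6, 34.7 and 39.1 CPM in IGF1 replicates 1 to 4. The DsRed libraries, in the same order, had 37.3, 37.8, 37.6 and 39.4 CPM. The group means were 37.1 ± 2.91 and 38.0 ± 0.94 CPM (SD, n = 4 each). The DsRed libraries lay inside the range of the IGF1 libraries, 2 of which lay below and 1 above all DsRed libraries. With a log2 fold change of -0.034, a standard error of 0.064 and a 95% interval of -0.18 to 0.11, changes outside 0.885-fold to 1.08-fold lay beyond the interval. The adjusted edgeR p was 0.919 and the exact permutation p 0.457. Without IGF1 replicate 1, the highest of the 8 libraries for Insr, the log2 fold change was -0.075 with an adjusted edgeR p of 0.849. It was -0.0015 without IGF1 replicate 2 and -0.0022 without IGF1 replicate 3, the libraries with the lowest Insr.

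Igfbp2, a binding protein with a preference for IGF-II, averaged 9.79 ± 3.798 CPM in IGF1 rats and 9.44 ± 3.75 CPM in DsRed rats (SD, n = 4 each). In each group 1 library was far above the other 3. In IGF1 replicates 1 to 4 the level was 15.4, 8.99, 7.03 and 7.79 CPM. In DsRed replicates 1 to 4 it was 6.77, 7.97, 8.03 and 15.01 CPM. The high libraries were IGF1 replicate 1 and DsRed replicate 4, and the other 6 lay between 6.77 and 8.99 CPM. The log2 fold change was 0.069 ± 0.30 (standard error), with a 95% interval of -0.60 to 0.74, with an adjusted edgeR p of 0.967 and an exact permutation p of 0.686. It was -0.25 without IGF1 replicate 1 and 0.37 without DsRed replicate 4. It was slightly below 0, at -0.050 to -0.0040, when any other DsRed library was left out.

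Igfbp5, a binding protein that also attaches to the extracellular matrix, averaged 150.8 ± 43.2 CPM in IGF1 rats and 119.2 ± 13.8 CPM in DsRed rats (SD, n = 4 each). It was at 214, 123.0, 143 and 123.2 CPM in IGF1 replicates 1 to 4. DsRed replicates 1 to 4 were at 109, 122.6, 137 and 107.8 CPM. IGF1 replicates 1 and 3 lay above every DsRed library, replicates 2 and 4 lay within the DsRed range, and the IGF1 library was the higher in 14 of 16 pairs. The log2 fold change was 0.34 ± 0.17 (standard error), with a 95% interval of -0.041 to 0.72. The edgeR p was 0.0747, or 0.743 adjusted, and the exact permutation p was 0.143. Without IGF1 replicate 1, the library that stood apart, the log2 fold change was 0.12 with an unadjusted edgeR p of 0.214. With between 1757 and 5870 reads per library, counting error was at most 2.39% and small beside the spread between rats.

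**Figure D2:**
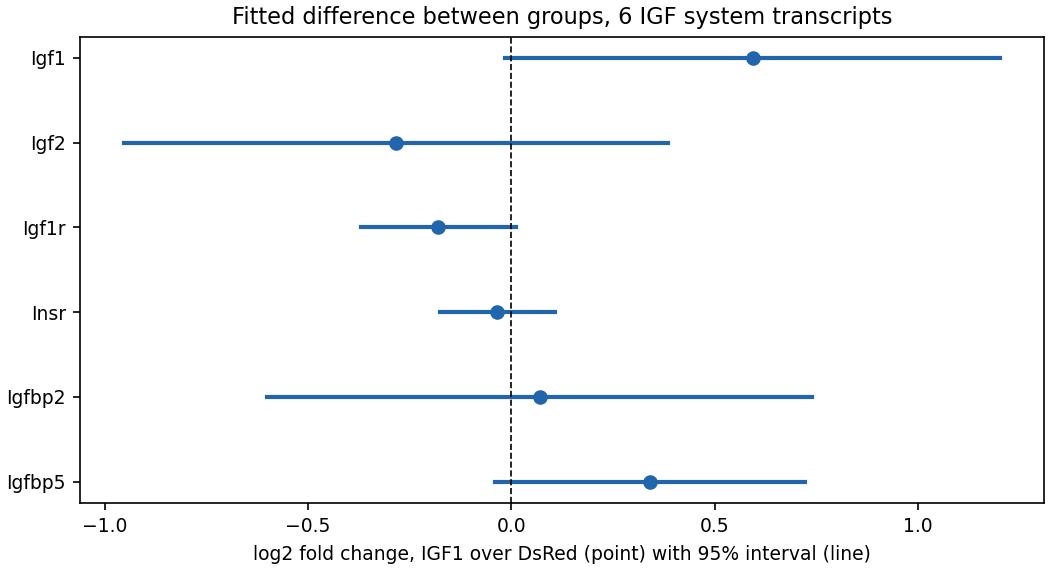
Fitted log2 fold change of the IGF1 over the DsRed group (x axis) for each transcript, with its 95% interval as a line and 0 as a dashed line. All 6 intervals include 0; that of Insr is the narrowest, at -0.18 to 0.11, and those of Igf2, at -0.95 to 0.38, and Igfbp2, at -0.60 to 0.74, are the widest.

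**Figure D3:**
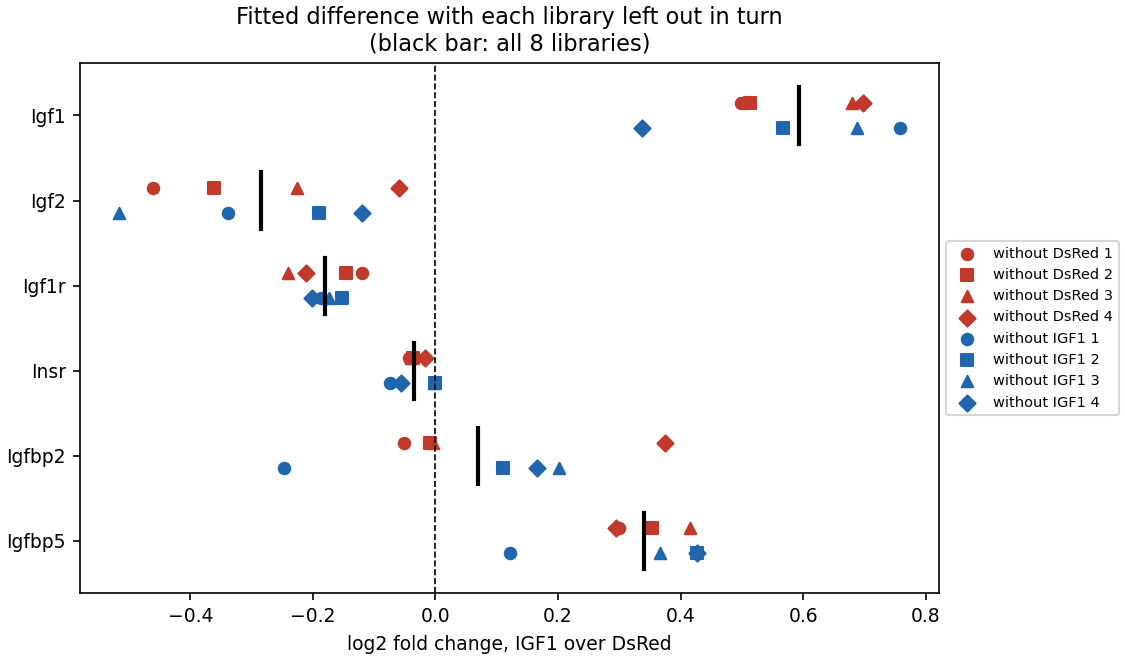
Fitted log2 fold change (x axis) after leaving out each library in turn, with the value from all 8 libraries as a black bar, DsRed libraries left out in red and IGF1 libraries in blue. Igf1 stays between 0.34 and 0.76, Igfbp5 moves to 0.12 without IGF1 replicate 1, and Igfbp2 lies on both sides of 0.

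The 6 transcripts differed in how much they varied between rats of the same group. The coefficient of variation within groups was 39.3% for Igfbp2, 36.8% for Igf2, 30.8% for Igf1 and 21.9% for Igfbp5. It was 8.90% for Igf1r and 5.81% for Insr, and its median over all tested IDs was 9.55%. Igfbp2, Igf2 and Igf1 thus varied more than 95.8%, 94.96% and 91.9% of the tested IDs, while both receptors lay below the median. For Igfbp5, IGF1 replicate 1 was at 214 CPM, against 123.0 to 142.9 CPM in the other IGF1 libraries. Igfbp5 varied by 28.7% among IGF1 rats and by 11.6% among DsRed rats. For Igfbp2, IGF1 replicate 1 and DsRed replicate 4 were at 15.4 and 15.01 CPM, the rest of their groups at 6.77 to 8.99 CPM. The coefficients were not computed without these libraries. Counting error was at most 8.16% for Igf2 and 9.58% for Igfbp2, well below their spread between rats. The precision with which a group difference could be measured followed this order, from a standard error of 0.064 for Insr to 0.30 for Igfbp2 and Igf2.

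Correlations over the 8 libraries were computed for the 15 pairs of these transcripts on log2 CPM, which share library and scaling. After Benjamini-Hochberg adjustment over the 15 pairs 0 passed 0.05 in exact permutation tests, and 0 had an unadjusted p under 0.05. Igf1 and Igf1r, the ligand and its receptor, had the largest Pearson's r in size, while by Spearman's rho it was Igf1r and Igfbp5, at -0.62 (exact permutation p 0.115, adjusted 0.977), with a Pearson's r of -0.40. For Igf1 and Igf1r, Pearson's r was -0.62 (exact permutation p 0.0992, adjusted 0.744) and Spearman's rho -0.55 (exact permutation p 0.171, adjusted 0.977). The difference between group means enters this value, and r was -0.39 after values were centred on their group means. It was -0.84 once the 2 libraries with Igf1 farthest from the median were left out (exact permutation p 0.0375, adjusted 0.257). Leaving out IGF1 replicate 4 alone gave r of -0.90, with an exact permutation p of 0.00337 and 0.0506 after adjustment. That was the most extreme value with 1 library left out, and the adjustment covers the 15 pairs but not the choice of library. Leaving out any other library gave r between -0.674 and -0.435, the latter without DsRed replicate 1 (exact permutation p 0.319).

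Insr and Igfbp2 followed, with r of 0.60 (exact permutation p 0.0863, adjusted 0.744) and rho of 0.52 (exact permutation p 0.197, adjusted 0.977). Their r was 0.64 on centred values. It was 0.85 once the 2 libraries with Insr farthest from its median were left out (exact permutation p 0.0153, adjusted 0.229). IGF1 replicate 1 was the highest library for both, and without it r was 0.42 (exact permutation p 0.397). Igf2 and Igfbp2 had r of 0.45 (exact permutation p 0.257, adjusted 0.889) and rho of 0.40 (exact permutation p 0.327, adjusted 0.977). Their r was 0.083 in the 6 libraries left once the 2 whose Igf2 was farthest from its median were left out. Those 2 were the lowest and the highest in Igf2. Cutting the range at both ends can lower r by itself, so this step cannot show what the value rested on. The neighbouring genes Igfbp2 and Igfbp5 had r of 0.41 (exact permutation p 0.310, adjusted 0.889) and rho of 0.14 (exact permutation p 0.752, adjusted 0.977). Their r was 0.12 after the same step with Igfbp2. It was -0.49 without IGF1 replicate 1, which was high in both, and 0.88 without DsRed replicate 4, which was high in Igfbp2 and lowest in Igfbp5.

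**Figure D4:**
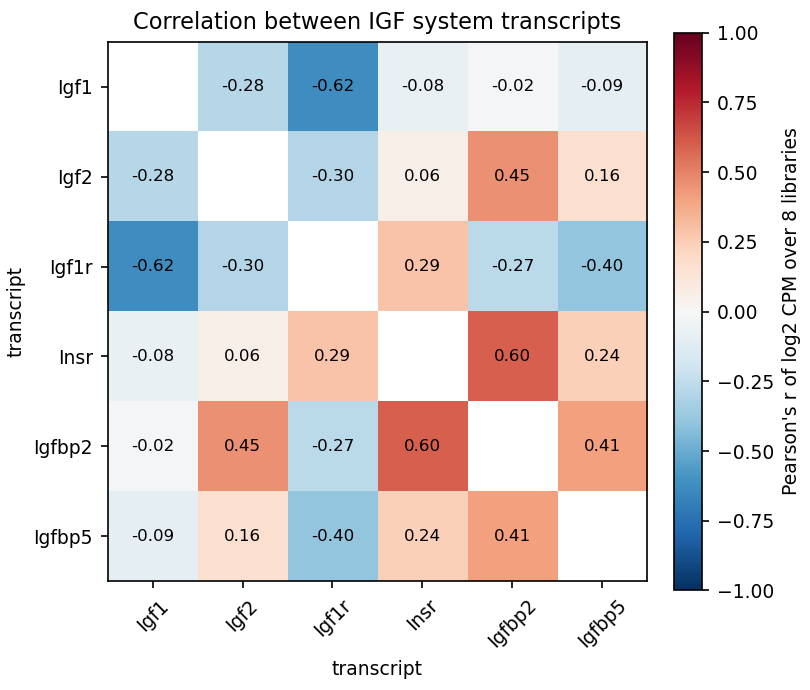
Pearson's r of log2 CPM over 8 libraries for each pair of transcripts (both axes), from blue (-1) to red (1). The largest values are -0.62 for Igf1 with Igf1r and 0.60 for Insr with Igfbp2, and none passed an exact permutation test.

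Ratios of reads within a library do not depend on how libraries are scaled, and are given as a description with no test. The ratio of Igf1 to Igf1r reads was 0.111, 0.193, 0.140 and 0.248 in IGF1 replicates 1 to 4. It was 0.0689, 0.0787, 0.134 and 0.131 in DsRed replicates 1 to 4. In this ratio 3 of the 4 IGF1 libraries lay above every DsRed library, against 2 of 4 for Igf1 alone. The means were 0.173 ± 0.060 and 0.103 ± 0.034 (SD, n = 4 each). IGF1 replicate 3, at 0.140, was above DsRed replicate 3, at 0.134, by less than the counting error of their Igf1 reads, 12.3% and 12.2%. The ratio of the receptors, Igf1r to Insr, was 0.590 ± 0.028 in IGF1 rats and 0.653 ± 0.085 in DsRed rats (SD, n = 4 each), with DsRed replicates 1 and 2 highest at 0.749 and 0.699. The ratio of Igf2 to Igfbp2 was 1.02, 1.24, 2.88 and 1.12 in IGF1 replicates 1 to 4. The DsRed libraries, in the same order, had 1.48, 1.81, 2.38 and 1.65. Thus 3 of the 4 IGF1 libraries lay below every DsRed library and the other lay above them all. The ratio of Igfbp5 to Igfbp2 was between 13.7 and 20.3 in 7 libraries and 7.18 in DsRed replicate 4.

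**Figure D5:**
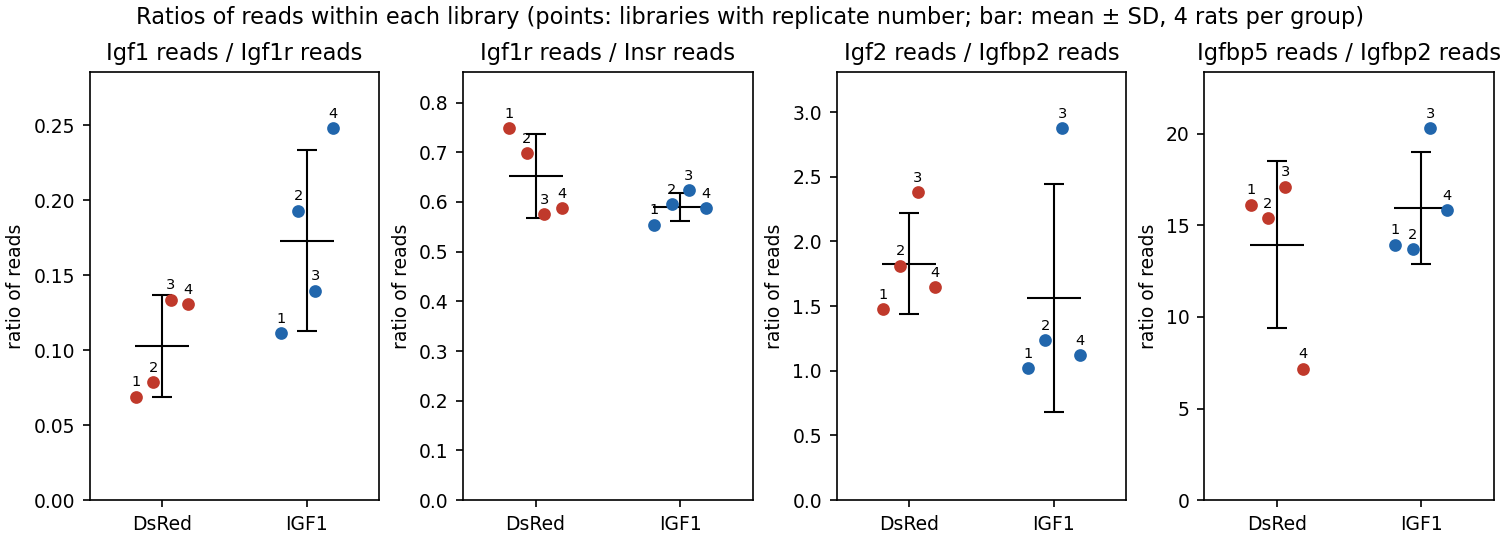
Ratio of the reads of 2 transcripts within each library (y axis from 0), with DsRed libraries in red and IGF1 libraries in blue, numbered by replicate, and the mean ± SD of 4 rats as a black bar. For Igf1 over Igf1r, IGF1 replicates 2, 3 and 4 lie above the highest DsRed library, at 0.134, replicate 3 only narrowly at 0.140. For Igf2 over Igfbp2, IGF1 replicate 3 is alone at 2.88.

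Among the 12696 other IDs whose log2 CPM averaged 1 or more, the one whose log2 CPM followed Igf1 most closely over the 8 libraries was ENSRNOG00000012237, with r of 0.983 and rho of 0.952. It averaged 115.6 ± 7.43 CPM in IGF1 rats and 106.0 ± 3.62 CPM in DsRed rats (SD, n = 4 each), for a log2 fold change of 0.12 and an adjusted edgeR p of 0.743. For Igf2 it was ENSRNOG00000028241, with r of 0.968 and rho of 1, at 18.9 ± 1.60 and 19.2 ± 1.90 CPM in the same order. These are the closest of 12696 IDs over 8 points and are given as a description only.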

How the data were processed

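Libraries were made from total RNA of 8 rat hippocampi with Illumina's TruSeq RNA Sample Preparation Kit. CASAVA 1.8.2, edgeR, HTSeq and STAR are listed in the submitters' processing notes. The sources used here do not give the genome build, annotation or strand setting, so overlapping genes may share or lose reads. The deposited count table holds raw read counts per Ensembl ID, and its 3 summary rows were left out. The deposited signal table is linear, equals the counts over a library factor (largest relative deviation 3.05e-09) and served an alternative only, as log2(value + 1).

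Samples were grouped by title, and the 28 pairs of libraries differed by at least 5.74 chi-square units per degree of freedom, so none was deposited repeatedly. In R 4.3.3, edgeR 4.0.16 filterByExpr (minimum count 10, minimum total 15) kept 14522 IDs. These were scaled by TMM and tested across all IDs with glmQLFit and glmQLFTest, with group as sole term, and two-sided p-values were adjusted by Benjamini-Hochberg. Standard errors are the log2 fold change divided by the root of the F statistic, with 95% intervals from the t distribution. Log2 CPM used a prior count of 2. Permutation tests were exact and two-sided. The procedure was tested on simulated data.

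Members and lists were chosen with earlier results of these data known. By rule all 6 members were named, with the most similar ID for Igf1 and Igf2. Other pathway genes and cell type markers, fixed by symbol, were not analysed here, since 0 entries of the gene table carry an Ensembl ID. Alternatives were edgeR's likelihood ratio test, DESeq2 1.42.0, limma 3.58.1 (voom, and trend on the deposited signal), other scalings and filters, a robust fit, the replicate block, and fits without 1 library or without both numbered 1.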

Additional observations from a re-analysis of the deposited data

Results flagged for a closer look

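Levels of the 6 transcripts and the 4 read ratios were searched for a library far from the rest of its group, 20 sets of 4 libraries in all, of which 2 held one. Chance gives about 1 such set in 20, and the sets are not independent, since Igfbp2 enters several. Igfbp2 was at 15.01 CPM in DsRed replicate 4, against 6.77 to 8.03 CPM in the other DsRed libraries, a gap of 0.847 of the group's range. The ratio of Igf2 to Igfbp2 reads was 2.88 in IGF1 replicate 3, against 1.02 to 1.24 in the other IGF1 libraries, a gap of 0.883 of the range. Below the mark, the ratio of Igfbp5 to Igfbp2 in DsRed replicate 4 had a gap of 0.826 and Insr in DsRed replicate 4 one of 0.768. In IGF1 replicate 1 the gap was 0.782 for Igfbp5 and 0.765 for Igfbp2, which was at 15.4 CPM there.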

How the results depend on the processing

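Of the 6 transcripts, 0 were called at an adjusted p under 0.05 under any of the 20 alternatives, and 5 kept the sign of their log2 fold change under all 20. Among all IDs, edgeR's likelihood ratio test called 11, DESeq2 13, and fits with 1 library left out 0 to 1. Other alternatives called 0 IDs. At an unadjusted p under 0.05, counts of members were chosen as a result after seeing the data. DESeq2 listed 2 (Igf1 and Igfbp5). The likelihood ratio test, the fit without a low count filter, the replicate block and the fit without both libraries numbered 1 listed 1 each (Igf1), total counts only listed 1 (Igf1r), and leaving out 1 library listed 0 to 1. Over all IDs, DESeq2 listed 859 of 20653, the likelihood ratio test 738 of 14522 and the fit without a low count filter 1101 of 20678. The replicate block listed 878 of 14522, and total counts only 1034 of 14522. Without both libraries numbered 1 the list held 921 of 14539 IDs, and with 1 library left out it held 626 to 1439 IDs. Scaling by total counts shifted the median over all IDs from 0.0027 to -0.026 on the log2 scale and the unadjusted list from 515 higher and 443 lower to 250 and 784. Igfbp2 reversed: its log2 fold change was -0.25 to 0.37 and its difference in CPM -1.50 to 2.19 with 1 library left out, and the former -0.36 without both libraries numbered 1. Exact tests passed for 0 to 1 members (Igf1r without DsRed replicate 3, the library that made its groups overlap). The r of Igfbp2 with Igfbp5 was -0.49 to 0.88. For each of these, the cause was not tested. Under the replicate block the log2 fold change of Igf1 was 0.58, with an edgeR p of 0.0220 unadjusted and 0.738 adjusted. For replicates 1 to 4, deviations from the group means correlated between the libraries of a number at 0.055, 0.13, 0.24 and 0.13. The labels name separate rats and no shared litter or day, and the first pair was under the 0.1 required of every pair, so the numbers were not taken to pair the rats. As a hint from the data, 4 of 4 IGF1 and 2 of 4 DsRed libraries correlated best with their own number. Depth limits Igf1 most, at 31 reads in its smallest library.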
